A study of Sus scrofa with 32 samples.

Results

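Loin muscle of a Landrace × Dapulian cross was compared with the midpoint of its 2 parental breeds, gene by gene. The 24 libraries of the Landrace (L), Dapulian (DPL) and Landrace × Dapulian (LDPL) groups were taken from the 32 of the series by their breed labels, 8 libraries per group. The 8 libraries of a further cross with Duroc were not used here. All pigs were labelled wild type and 6 months old, were kept under similar housing and feeding, and gave longissimus dorsi, the loin muscle along the back. The labels do not give the direction of the cross, its generation, the sex of the pigs or their relationship, so L and DPL stand for the parental breeds and not for the parents of these crossbred pigs. Landrace is a white, lean commercial breed, and Dapulian is a local Chinese breed.

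In a cross, a gene is called additive when its level lies midway between those of the parental breeds. It shows dominance when the cross stays at the level of one breed, and overdominance or underdominance when the cross lies above or below both. "Midway" depends on the scale: the midpoint of log2 levels is the geometric mean of the parental levels, and the midpoint of the levels themselves is the arithmetic mean. The arithmetic mean is what a cross shows when each allele keeps the output it has in its own breed. It is always the higher of the 2 when the parental levels differ, so the choice matters most for genes whose parental levels are far apart.

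Between 21.7 and 29.7 Mreads (10 to the power of 6 reads) per library were assigned to genes, and 12599 genes passed the filter on low counts. Levels are given as CPM, each gene's reads per 10 to the power of 6 reads of the library, after TMM scaling, which corrects for differences in library composition. Skeletal muscle fibre markers summed to between 45600 and 133000 CPM in each library, against 19.8 to 162 CPM for macrophage markers and 5.6 to 293 CPM for blood cell markers. No gene of the endothelial, smooth muscle, macrophage, lymphocyte, blood, nerve or adipocyte marker lists was called against the midpoint on either scale. Only 2 blood cell and 3 nerve markers were tested. Of 5 satellite cell markers tested, 1 lay below the midpoint on each scale. Mitochondrially encoded genes took 20.8% ± 2.58 (SD, n = 8) of the reads in L, 31.3% ± 5.59 in DPL and 22.9% ± 4.37 in LDPL. The LDPL share was lower than the DPL share (two-sided exact permutation test, adjusted p = 0.0131), and its difference from L gave an adjusted p of 0.266. L replicate 2 stood apart: it listed 15664 genes, against 14712 to 15040 in the other L libraries, and was the lowest or highest of its group for several genes below. L pigs carry their own number series in the labels, whereas the numbers of DPL and LDPL pigs do not repeat each other, so breed and any difference in handling between L and the other groups cannot be told apart.

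The cross lay nearer to DPL than to L for most genes whose parental levels differed. DPL and L differed in 4740 of 12599 genes (37.6%, edgeR quasi-likelihood test with Benjamini-Hochberg adjusted p under 0.05), 2305 higher and 2435 lower in DPL. LDPL and L differed in 3649 genes (29.0%), and LDPL and DPL in 297 (2.36%), of which 137 were higher (1.09%) and 160 lower (1.27%) in LDPL. Position was then expressed as the share of the way from L to DPL at which the cross lay, with L at 0 and DPL at 1. Over the 4740 genes the median position was 0.741 on the log2 scale and 0.754 on the linear scale, with the quartiles on the log2 scale at 0.521 and 0.975. The cross lay on the DPL side of the midpoint but short of DPL in 54.2% of these genes, beyond DPL in 22.8%, on the L side in 20.6% and beyond L in 2.41%. Each of the 8 crossbred pigs taken alone lay on the DPL side, with median positions between 0.564 (replicate 10) and 0.955 (replicate 15) over genes whose parental levels differed by at least 0.25 on the log2 scale. Replicate 10 had the lowest mitochondrial share of the cross, 15.8%, and replicate 15 had 25.8%. These positions share the L and DPL libraries with the test that selected the genes, and are a description.

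**Figure D1:**
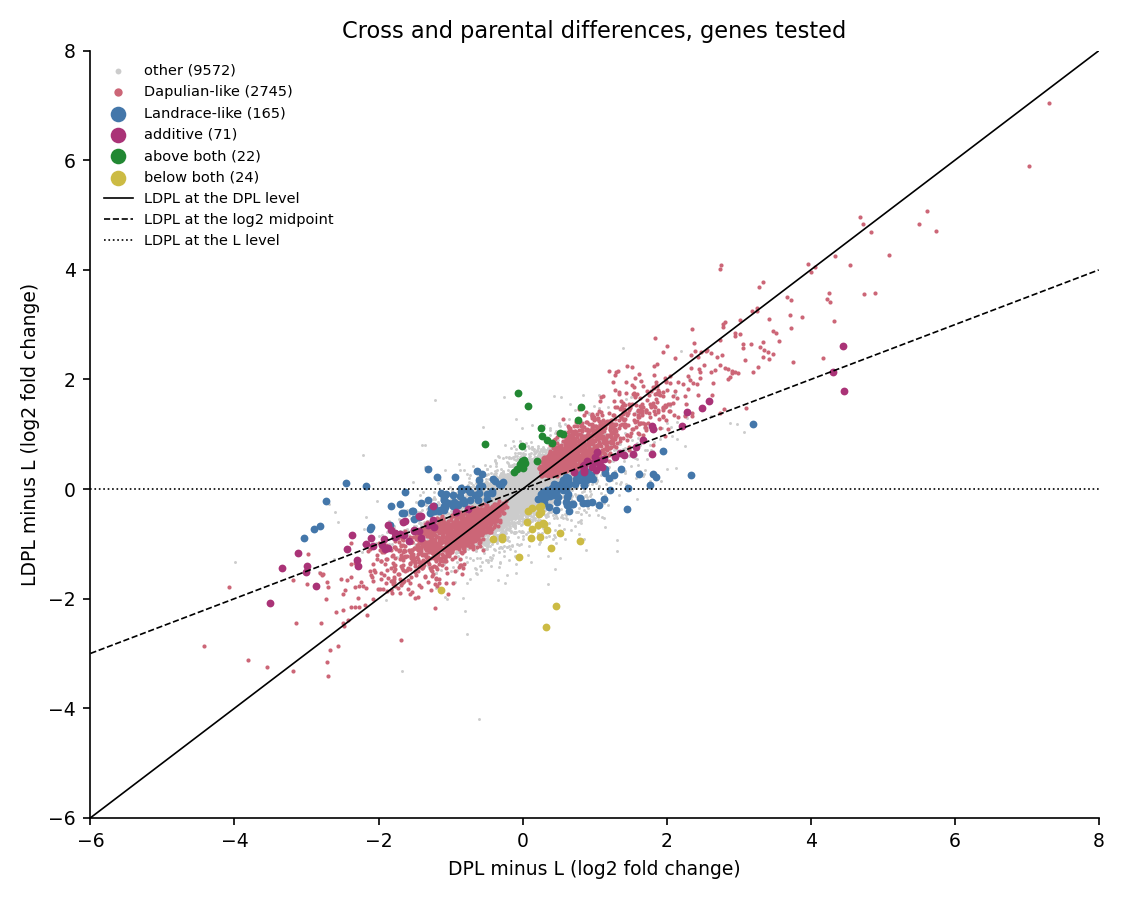
Log2 fold change of LDPL against L (vertical) plotted over that of DPL against L (horizontal), 1 point per tested gene. The 2745 Dapulian-like genes lie along the solid line, where the cross equals DPL, and the 165 Landrace-like genes lie along the dotted line, where it equals L. The 71 additive genes lie between these lines, around the dashed midpoint line. The classes were sorted by these same differences, so their places in the plot follow from the sorting.

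The pattern of the 3 pairwise tests placed 2745 genes (21.8%) in the Dapulian-like class, in which DPL and LDPL each differed from L and no difference between them was called. The class was balanced in direction, with 1381 genes higher and 1364 lower in DPL than in L. Of all genes tested, 165 (1.31%) were Landrace-like, 71 (0.564%) were additive with all 3 groups apart, 22 (0.175%) lay above both parental groups and 24 (0.19%) below both. The additive class holds any gene with the cross called between both groups, midway or not. Of its 71 genes, 2 lay below the linear midpoint and none departed from the log2 midpoint. It needs the cross called against both groups, so its size does not count the genes near the midpoint. A further 1751 genes (13.9%) differed between the parental groups with the cross called against neither, 802 (6.37%) had the cross called against 1 group only while the parental groups were not called, and 7019 (55.7%) had no call. A missing call does not show that levels were alike. Each edgeR test was adjusted on its own, and a call against DPL needed a smaller unadjusted p than one against L. NALF2 just passed against DPL at 0.00118 (adjusted p = 0.0499), while UBE2L6 passed against L at 0.0137 (adjusted p = 0.0479). This favours the Dapulian-like over the Landrace-like class. ATF3, for example, was Dapulian-like though 2.04-fold lower in LDPL than in DPL (adjusted p = 0.0973). The median position was 0.922 in the Dapulian-like, 0.489 in the additive and 0.131 in the Landrace-like class, on the log2 scale. The classes were sorted by the same differences that give the position, so these medians describe the sorting. The smaller classes moved with single libraries. The additive count lay between 29 and 46 when L replicate 5, DPL replicate 11 or 21, or LDPL replicate 5, 8, 9, 10, 14 or 24 was left out. The Landrace-like count was 78 without LDPL replicate 5, 69 without LDPL replicate 10 and 105 without DPL replicate 21. Without L replicate 2 the classes held 2646 Dapulian-like, 203 Landrace-like, 85 additive, 20 above-both and 30 below-both genes.

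On the log2 scale 966 genes (7.67%) departed from the midpoint, 598 above (4.75%) and 368 below (2.92%). On the linear scale 907 genes departed (7.2%), 405 above (3.21%) and 502 below (3.98%). More genes thus lay above than below on the log2 scale. The opposite order on the linear scale was not kept by every setting: limma on scaled linear CPM gave 431 above and 388 below, the fit without a filter on low counts 342 and 336, and an adjusted p under 0.01 128 and 126. All 405 genes above the linear midpoint were also above the log2 midpoint, and 367 of the 368 genes below the log2 midpoint were also below the linear one. No gene was called in opposite directions. The 193 genes above on the log2 scale alone had a median fold difference of 2.18 between the parental groups, 180 of them were higher in DPL and 166 were Dapulian-like. The 135 genes below on the linear scale alone had a median parental fold of 1.98, and 16 of them were higher in DPL. Without LDPL replicate 15, the crossbred library nearest to DPL, the counts were 382 above and 194 below on the log2 scale and 230 above and 282 below on the linear scale. Without L replicate 2 they were 604 and 353 on the log2 scale and 393 and 476 on the linear scale.

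Transcription factors induced within minutes of stimulation showed how far the answer depends on the scale. NR4A3, a nuclear receptor of the immediate early response, ranged from 0.23 to 1.58 CPM in L with a median of 1.08. It ranged from 36.8 to 310.0 CPM in DPL, with a median of 141.9. In LDPL it ranged from 64.9 to 296 CPM with a median of 99.4. All pigs of DPL and LDPL lay above all L pigs, and the 2 higher groups overlapped almost completely. The parental midpoint was 12.2 CPM on the log2 scale and 77.6 CPM on the linear scale. NR4A3 therefore lay 3.38 ± 0.35 (SE) log2 units above the first (edgeR adjusted p = 5.5e-07) and 0.72 ± 0.39 above the second, which was not called (adjusted p = 0.277). ATF3, a stress-induced repressor and activator of transcription, averaged 8.41 CPM in L, 449 in DPL and 220 in LDPL. It lay 1.84 ± 0.28 log2 units above the log2 midpoint (adjusted p = 1.9e-04), with a linear distance of -0.06 ± 0.33 (adjusted p = 0.944).

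MAFF, a small Maf transcription factor, was above the midpoint on both scales. It ranged from 3.08 to 6.95 CPM in L with a median of 5.4, from 69.6 to 188 in DPL with a median of 96.9, and from 43.6 to 151 in LDPL with a median of 95.6. The cross and DPL overlapped, and neither reached the L range. Its distance from the midpoint was 2.09 ± 0.18 on the log2 scale (adjusted p = 3.2e-08) and 0.85 ± 0.21 on the linear scale (adjusted p = 0.0144). KLF4, a zinc finger factor of differentiation, likewise held for both midpoints at 7.75 CPM in L, 46.0 in DPL and 45.2 in LDPL, with a linear distance of 0.75 ± 0.20 (adjusted p = 0.0249, and 0.062 without LDPL replicate 4). Of 17 immediate early genes tested, 16 were higher in DPL than in L, 15 were Dapulian-like and 10 lay above the log2 midpoint, while 2 lay above the linear midpoint. Over all genes tested these shares were 18.3%, 21.8%, 4.75% and 3.21%. The median position of the 16 genes was 0.82 on the log2 scale, beside 0.741 over all genes. On the linear scale the order was reversed, with 0.641 beside 0.754. In bulk tissue, fewer responding cells and less RNA per cell cannot be told apart.

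Chaperones behaved similarly at smaller size. All 18 heat shock genes tested were higher in DPL than in L (18.3% over all genes), and 15 were Dapulian-like (21.8%). Of the 18, 4 lay above the log2 midpoint (4.75% over all genes) and none above the linear one (3.21%). HSPH1, a large co-chaperone of HSP70, averaged 38.4 CPM in L, 269 in DPL and 178 in LDPL, which put it 0.81 ± 0.17 above the log2 midpoint (adjusted p = 0.00347) and 0.21 ± 0.19 above the linear one (adjusted p = 0.522). BAG3, which links chaperones to autophagy of damaged sarcomere proteins, averaged 209 CPM in L, 908 in DPL and 728 in LDPL. The matrix proteases ADAMTS4 and MMP25 were Dapulian-like and followed the same order, with 0.297, 10.7 and 6.02 CPM for ADAMTS4 and 0.442, 13.3 and 5.4 CPM for MMP25. One LDPL pig, replicate 4, carried 22.2 CPM of ADAMTS4 against 2.0 to 5.43 CPM in the others, and without it the log2 distance of ADAMTS4 from the midpoint had an adjusted p of 0.10 instead of 0.015.

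**Figure D2:**
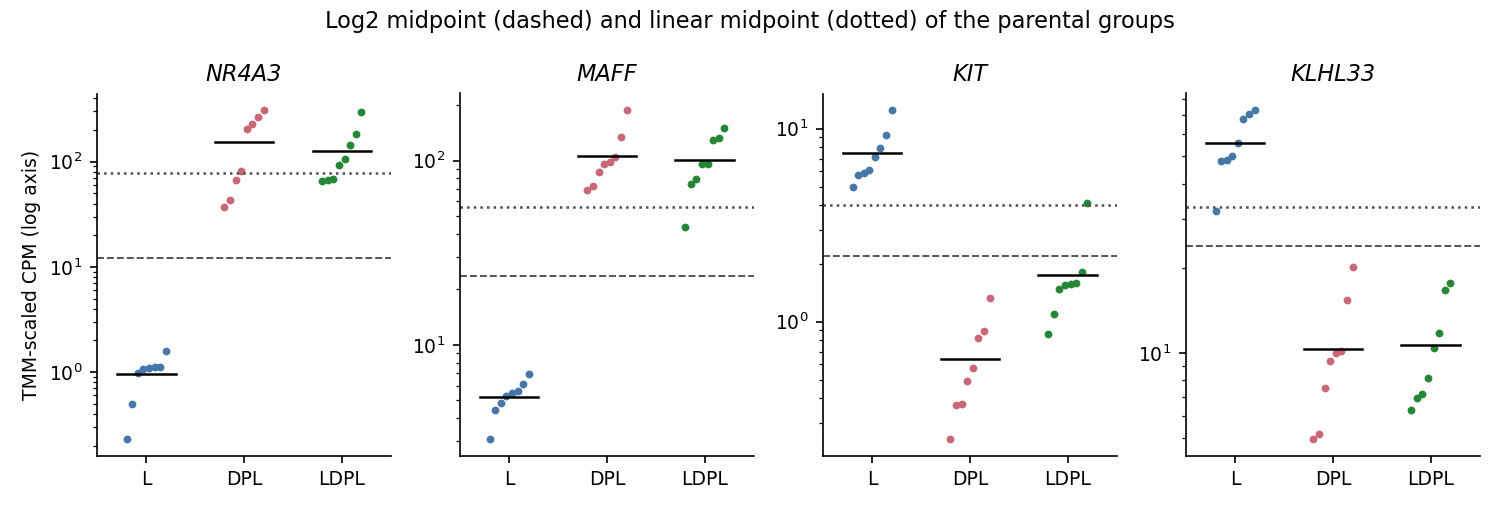
TMM-scaled CPM per pig on a log axis for 4 genes, with group means as bars and the log2 (dashed) and linear (dotted) midpoints of L and DPL. NR4A3 and MAFF in LDPL lie far above the log2 midpoint, and KIT and KLHL33 lie below the linear one.

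Genes with high L levels gave the opposite picture. KLHL33, a kelch-like protein, ranged from 32.0 to 73.0 CPM in L, with a median of 52.8, against 4.95 to 20.2 CPM in DPL and 6.29 to 17.8 CPM in LDPL. No DPL or LDPL pig reached the L range. Its distance from the midpoint was -1.17 ± 0.24 on the log2 scale (adjusted p = 0.00316) and -1.63 ± 0.24 on the linear scale (adjusted p = 4.6e-04). MAMSTR, a coactivator of the muscle factor MEF2, averaged 43.5 CPM in L, 11.4 in DPL and 12.3 in LDPL. It had the smallest p of the genes below the linear midpoint, at -1.15 ± 0.13 (adjusted p = 8.1e-06). HRC, a calcium-binding protein of the sarcoplasmic reticulum, averaged 366, 221 and 188 CPM (linear distance -0.64 ± 0.10, adjusted p = 0.000613). LMAN2L, a lectin of the secretory pathway, at 27.7, 18.8 and 15.5 CPM, and CNNM3, a membrane protein of the cyclin M family, at 23.6 CPM in L and 10.8 CPM in LDPL, were also below both midpoints. In the other direction, ZC3H7A, a zinc finger RNA-binding protein, averaged 32.8, 52.5 and 63.6 CPM and was above both (linear distance 0.58 ± 0.09, adjusted p = 0.000465). PIK3IP1, a membrane inhibitor of PI3-kinase, averaged 21.2, 3.83 and 5.88 CPM in L, DPL and LDPL, and lay below the linear midpoint only (-1.09 ± 0.23, adjusted p = 0.0049). KY, the kyphoscoliosis peptidase of muscle, averaged 136, 26.0 and 30.5 CPM, with a linear distance of -1.41 ± 0.37 (adjusted p = 0.0193). KY was below the log2 midpoint only without L replicate 2 (adjusted p = 0.026, against 0.0968 with it).

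The calls of 2 developmental sarcomere genes rested on single L pigs. TNNT2, the cardiac and embryonic troponin T, had 49.6 CPM in L replicate 2 and between 0.776 and 3.2 CPM in the other L pigs, beside 0.321 to 1.47 CPM in DPL and 0.409 to 1.4 CPM in LDPL. Its linear distance of -2.48 ± 0.66 (adjusted p = 0.0219) became -0.80 (adjusted p = 0.0874) without that library. MYH3, the embryonic myosin heavy chain, whose reads may be shared with other myosin genes, ranged from 3.45 to 225 CPM in L around a median of 9.0. Its linear call (-2.15 ± 0.65, adjusted p = 0.043) was lost in 11 of 24 fits that each left out 1 library, and without L replicate 2 the adjusted p was 0.173. Among growth regulators, IGFBP5, a binding protein of insulin-like growth factors, was Dapulian-like and below both midpoints, with 57.4 CPM in L, 16.6 in DPL and 17.8 in LDPL (log2 distance -0.80 ± 0.20, adjusted p = 0.0158). SMAD3, a signal carrier of TGF-beta, was above both midpoints at 39.1, 62.3 and 69.4 CPM (log2 distance 0.49 ± 0.11, adjusted p = 0.00693). Of 21 myogenic and growth regulators tested, 1 was above and 5 were below the midpoint on each scale. Over all genes, 4.75% were above and 2.92% below on the log2 scale, and 3.21% and 3.98% on the linear scale.

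Few genes lay outside the parental groups. RICTOR, the subunit that defines mTOR complex 2, ranged from 5.60 to 10.2 CPM in L with a median of 7.70, and from 9.73 to 17.6 in DPL with a median of 14.2. In LDPL it ranged from 17.6 to 25.9 CPM with a median of 22.9. Of the 8 crossbred pigs, 7 lay above all 16 parental pigs. RICTOR was 1.10 ± 0.10 above the log2 midpoint (adjusted p = 9.5e-08) and 1.04 ± 0.11 above the linear midpoint (adjusted p = 2.9e-06). It exceeded DPL by 0.69 ± 0.12 on the log2 scale (adjusted p = 0.00539) and L by 1.51 ± 0.12 (adjusted p = 2.1e-09).

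RORA, a nuclear receptor that drives the clock gene BMAL1, ranged from 27.5 to 46.8 CPM in L, 34.2 to 71.1 in DPL and 67.7 to 96.7 in LDPL. The group medians were 33.9, 64.7 and 87.0 CPM, and 6 of 8 crossbred pigs lay above every parental pig. Its log2 distance from the midpoint was 0.88 ± 0.11 (adjusted p = 1.1e-05). RPS6KA3, a ribosomal S6 kinase downstream of ERK, averaged 64.3 CPM in L, 95.3 in DPL and 129 in LDPL. CNOT8, a deadenylase subunit of the CCR4-NOT complex that shortens mRNA tails, averaged 17.1, 24.5 and 34.7 CPM, with 6 of 8 crossbred pigs above every parental pig. The comparisons of these 3 genes with DPL had adjusted p values of 0.0392 for RORA, 0.049 for RPS6KA3 and 0.0448 for CNOT8, close to the threshold.

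For other genes of this class no difference between the parental groups was called. CLIP1, a microtubule plus-end protein, averaged 363 CPM in L, 359 in DPL and 517 in LDPL (log2 distance 0.52 ± 0.11, adjusted p = 0.00317). PKDCC, a secreted tyrosine kinase of matrix proteins, averaged 55.3, 55.0 and 95.2 CPM, and 1 DPL pig, replicate 23, at 107 CPM stood within the crossbred range. FTL, the ferritin light chain of iron storage, whose processed copies could share reads, averaged 178, 174 and 245 CPM. XPA, a damage-recognition factor of nucleotide excision repair, averaged 5.78, 5.87 and 8.36 CPM. ZNF133, a zinc finger repressor, averaged 3.35, 2.34 and 5.94 CPM, with single crossbred pigs from 2.32 to 9.1 CPM. Of these 5 genes, PKDCC, FTL and XPA had crossbred pigs inside the parental ranges in 7, 3 and 4 of 8 cases, and CLIP1 and ZNF133 in 2 of 8 cases each.

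Catalase was among the genes below both groups. CAT, which breaks down hydrogen peroxide in peroxisomes, ranged from 330.4 to 453 CPM in L with a median of 368, and from 209 to 400.4 in DPL with a median of 271. In LDPL it ranged from 155 to 258 CPM with a median of 197. All crossbred pigs lay below all L pigs, and 6 of 8 lay below every DPL pig too. CAT had a log2 distance of -0.71 ± 0.12 from the midpoint (adjusted p = 4.0e-04) and differed from DPL by -0.50 ± 0.13 (adjusted p = 0.0395). Other antioxidant genes with a call lay above the midpoint. GSR, glutathione reductase, averaged 6.07, 9.78 and 12.2 CPM in L, DPL and LDPL (log2 distance 0.67 ± 0.17, adjusted p = 0.0127). KEAP1, the sensor that holds the NRF2 factor in check, averaged 12.5, 11.5 and 17.2 CPM (log2 distance 0.53 ± 0.14, adjusted p = 0.0183, and 0.065 without LDPL replicate 10). Of 19 antioxidant and glutathione genes tested, 4 were above and 1 below the log2 midpoint, and 2 above and 1 below the linear midpoint. The shares over all genes were 4.75% above and 2.92% below on the log2 scale, and 3.21% and 3.98% on the linear scale.

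ERAP1, the aminopeptidase that trims peptides for MHC class I, ranged from 8.9 to 24.1 CPM in L with a median of 15.5, and from 10.3 to 25.3 in DPL with a median of 14.3. In LDPL it ranged from 3.36 to 15.5 CPM with a median of 5.91. One crossbred pig, replicate 24, lay at the parental level, and 6 of 8 lay below every parental pig. The log2 distance was -1.21 ± 0.23 (adjusted p = 0.00159). ARPP21, a cAMP-regulated phosphoprotein that binds RNA, averaged 35.8 CPM in L, 42.3 in DPL and 19.6 in LDPL (log2 distance -0.99 ± 0.17, adjusted p = 7.2e-04). ANKH, a membrane exporter of pyrophosphate and ATP, averaged 9.60, 10.4 and 5.18 CPM, with no crossbred pig below the whole parental range, whose lowest pig had 2.80 CPM in L. RAVER2, an RNA-binding protein, averaged 4.71, 5.46 and 3.0 CPM, JADE2, a chromatin reader, 7.46, 6.11 and 3.95 CPM, and FAM219B 9.78, 8.0 and 5.35 CPM. The largest distance in this class among the named genes belonged to a gene without a symbol, ENSSSCG00000024342, chosen after its values were seen. It ranged from 4.31 to 34.3 CPM in L, 6.57 to 58.5 in DPL and 0.24 to 7.43 in LDPL (log2 distance -2.68 ± 0.52, adjusted p = 0.00201).

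**Figure D3:**
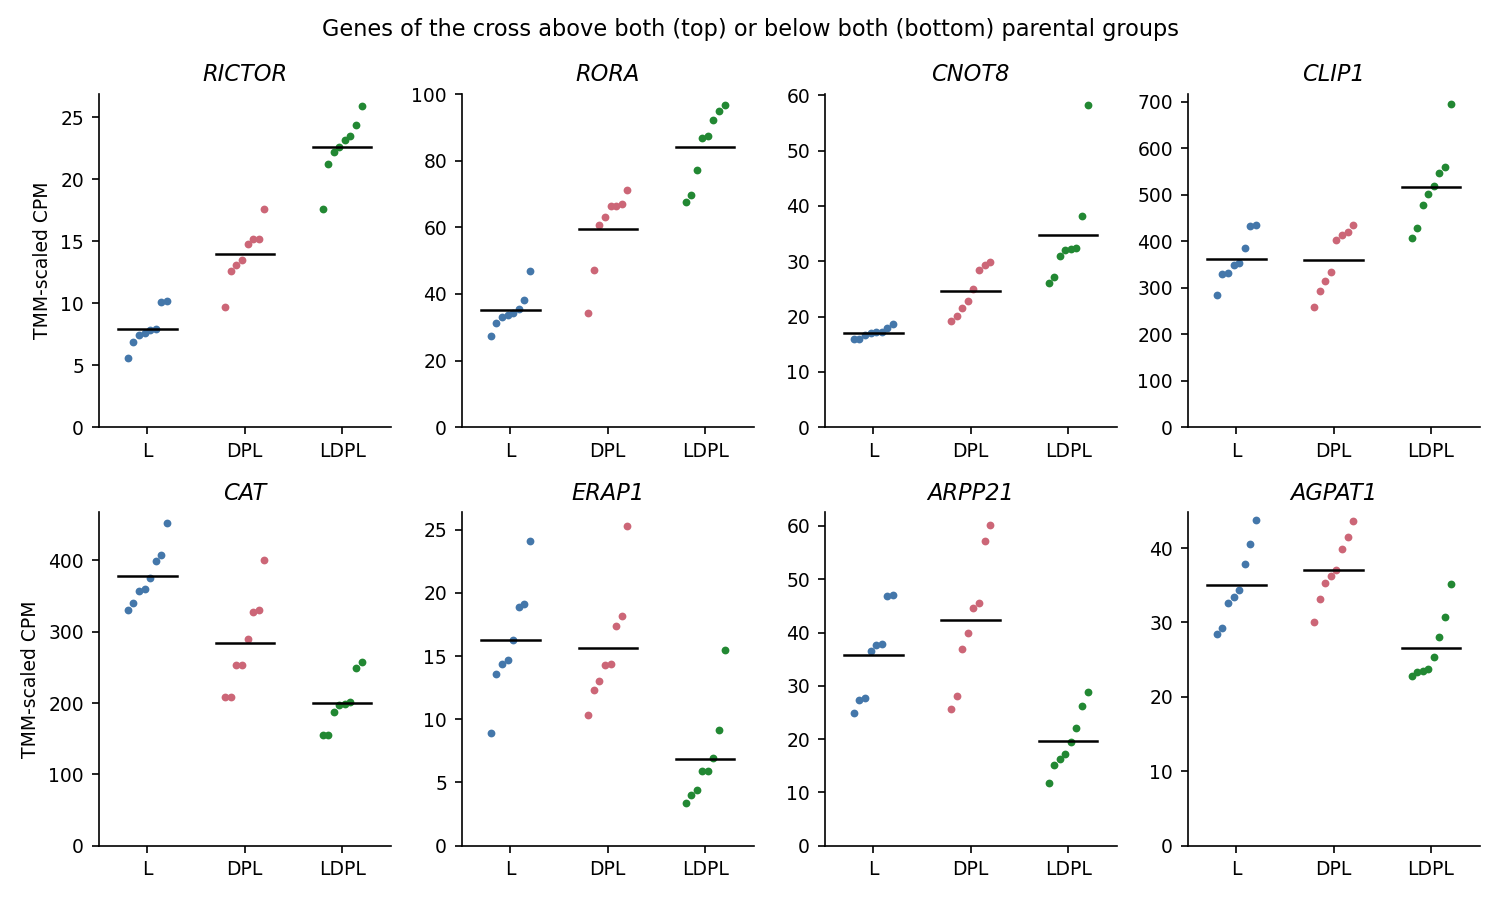
TMM-scaled CPM per pig (points) and group means (bars) for 4 genes above both and 4 below both parental groups. RICTOR, RORA and CNOT8 step up from L to DPL to LDPL, whereas CLIP1, ERAP1, ARPP21 and AGPAT1 have parental groups at similar levels.

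The separation was seldom complete. Among all 12599 genes, 1 had all 8 crossbred pigs above all 16 parental pigs and 1 had all 8 below. The latter was EXD2, a nuclease, at 5.25 CPM in L, 3.91 in DPL and 2.81 in LDPL, singled out after its values were seen and classed as Dapulian-like because its difference from DPL had an adjusted p of 0.0509. Of the 22 genes above both, 14 had at least 6 crossbred pigs above every parental pig. Of the 24 below both, 11 had at least 6 below. The above-both count was 38 without LDPL replicate 4 and between 10 and 13 without LDPL replicate 5, 10 or 24. The below-both count was 10 without LDPL replicate 5 and 15 without L replicate 4 or 9 or LDPL replicate 10 or 24.

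Interferon-stimulated genes had a median position close to L, and those called against the midpoint lay below it. Of 21 tested, 9 were higher in DPL than in L (18.3% over all genes) and 5 were lower in LDPL than in DPL (1.27%). Of the 21, 4 lay below the log2 midpoint (2.92% over all genes) and 5 below the linear midpoint (3.98%), and none lay above. Their median log2 distance was -0.61, beside -0.02 over all genes tested, and the median position of the 9 genes was 0.179. IRF9, the DNA-binding part of the interferon factor ISGF3, averaged 15.0 CPM in L, 18.3 in DPL and 9.76 in LDPL and was below both groups (log2 distance -0.76 ± 0.20, adjusted p = 0.0203, and 0.057 without LDPL replicate 15). UBE2L6, the conjugating enzyme of the ubiquitin-like ISG15, averaged 6.29, 9.02 and 3.63 CPM and was also below both (log2 distance -1.05 ± 0.27, adjusted p = 0.0167). STAT2, a partner of IRF9 in ISGF3, averaged 10.6, 9.46 and 6.48 CPM (log2 distance -0.63 ± 0.18, adjusted p = 0.0337, and between 0.065 and 0.079 without LDPL replicate 8, 10, 14 or 15). IFIT5, which binds foreign RNA, was Landrace-like at 4.64, 10.6 and 5.36 CPM. MX1, an antiviral GTPase, ranged from 2.81 to 98.6 CPM among DPL pigs, from 4.06 to 19.2 in L and from 2.04 to 36.9 in LDPL. Its distance from the midpoint was not called (adjusted p = 0.447 on the log2 scale). For IRF9, UBE2L6, STAT2, IFIT5 and MX1, DPL replicates 11, 16, 21 and 30 were the highest DPL pigs. UBE2L6 lay at 10.9 to 14.4 CPM in them and at 4.28 to 5.64 CPM in the other DPL pigs. MX1 lay at 29.0 to 98.6 and 2.81 to 13.8 CPM. The DPL means of these genes thus rested in large part on the same few pigs. The summed macrophage markers averaged 51.6 CPM in L, 56.9 in DPL and 54.3 in LDPL, and the lymphocyte markers 18.0, 11.2 and 13.7 CPM; their part in the interferon result was not tested.

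For genes of mitochondrial metabolism the median position of the cross lay on the L side. All 10 genes of the citric acid cycle that differed between the parental groups, of 18 tested, were higher in DPL (18.3% over all genes). Their median position in the cross was 0.16. MDH2, mitochondrial malate dehydrogenase, ranged from 330.2 to 562 CPM in L, 512 to 759 in DPL and 336 to 509 in LDPL. Its medians were 457, 584 and 460.2 CPM, and every crossbred pig lay below every DPL pig. MDH2 was Landrace-like, one of 3 such genes in this list (1.31% over all genes), and its distance from the midpoint was not called (log2 distance -0.22 ± 0.10, adjusted p = 0.172). No gene of the citric acid cycle was Dapulian-like or called against a midpoint.

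Of 29 nuclear subunits of oxidative phosphorylation, 26 were higher in DPL than in L (18.3% over all genes), and their median position was 0.465. They split into 10 Dapulian-like, 6 Landrace-like and 1 additive gene, the rest having no call for the cross. Over all genes tested these classes held 21.8%, 1.31% and 0.564%. NDUFB9, a subunit of complex I, was Dapulian-like at 214, 452 and 425 CPM in L, DPL and LDPL (log2 distance 0.45 ± 0.12, adjusted p = 0.0213, and 0.058 without LDPL replicate 15 or 24). NDUFV1, the flavoprotein of the same complex, was Landrace-like at 81.8, 111 and 76.4 CPM (log2 distance -0.32 ± 0.09, adjusted p = 0.029, and between 0.056 and 0.066 without LDPL replicate 5, 10 or 15). ATP5F1A, the alpha subunit of ATP synthase, was Landrace-like at 430.2, 728 and 513 CPM with a position of 0.336. The 13 mitochondrially encoded genes had 10 members higher in DPL than in L (18.3% over all genes) with a median position of 0.259. Only ATP8 among them was called against the midpoint, at 4416, 3658 and 2284 CPM, and its reading frame overlaps that of ATP6, so their reads may be shared.

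In fatty acid oxidation, 18 of 26 genes were higher in DPL than in L (18.3% over all genes), and their median position was 0.368. HADHB, the thiolase subunit of the mitochondrial trifunctional protein, was additive at 189, 397 and 257 CPM. CPT1A, the carnitine palmitoyltransferase that is the main form in liver, lay below the midpoint at 22.9, 18.2 and 13.7 CPM (log2 distance -0.57 ± 0.13, adjusted p = 0.00719). ACADL, a long-chain acyl-CoA dehydrogenase, lay below at 88.2, 87.7 and 63.1 CPM (-0.48 ± 0.14, adjusted p = 0.0301, and between 0.057 and 0.065 without LDPL replicate 4, 5, 14 or 15). These fatty acid oxidation genes, like those of the citric acid cycle and oxidative phosphorylation, moved beside the mitochondrial share of reads, which was also on the L side in the cross; the part of that share in the result was not tested. In glycolysis and glycogen metabolism 22 of 32 genes differed between the parental groups (37.6% over all genes), 7 higher and 15 lower in DPL, with a median position of 0.618, beside 0.741 over all genes. LDHA, lactate dehydrogenase A, was Landrace-like with 7420 CPM in L, 3852 in DPL and 6305 in LDPL. UGP2, which makes UDP-glucose for glycogen, was Dapulian-like with 249.9, 658 and 663 CPM and lay 0.71 ± 0.15 above the log2 midpoint (adjusted p = 0.00385). Its linear call (adjusted p = 0.0337) was lost in 6 of 24 fits that each left out 1 library. PFKFB4 lay below the midpoint (log2 distance -0.46, adjusted p = 0.0245). Of the 32 genes, 1 lay above and 1 below the midpoint on each scale. Over all genes these shares were 4.75% and 2.92% on the log2 scale, and 3.21% and 3.98% on the linear scale.

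**Figure D4:**
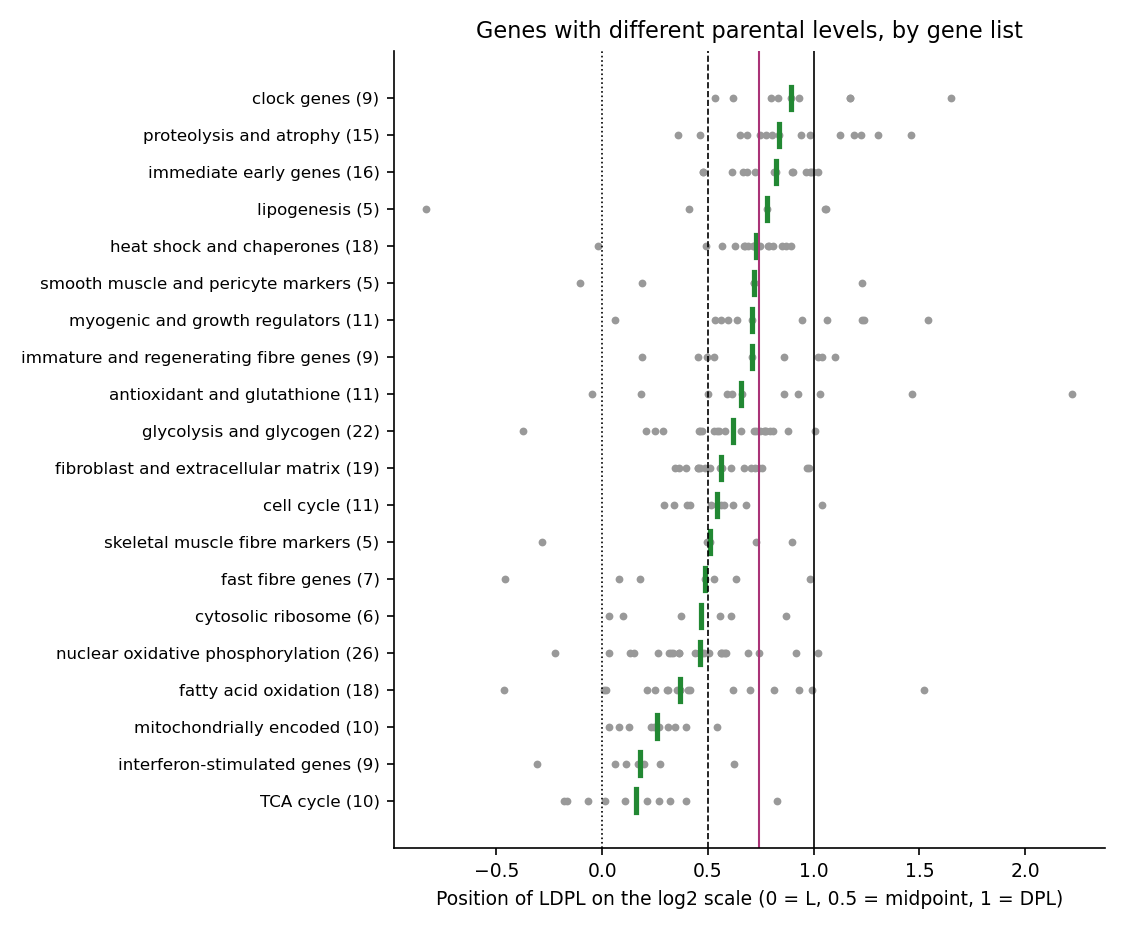
Position of LDPL between L (0) and DPL (1) on the log2 scale for each gene with different parental levels (grey points), by gene list with at least 5 such genes, whose number is in parentheses. Green bars are list medians, from 0.16 for the citric acid (TCA) cycle to 0.892 for clock genes, and the purple line is the median of 0.741 over all 4740 genes.

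Among genes in which all 3 groups differed, the coagulation trigger F3 (tissue factor) averaged 3.98 CPM in L, 24.0 in DPL and 12.1 in LDPL, with a position of 0.619 on the log2 scale and 0.407 on the linear scale. NFKBIZ, a nuclear regulator of NF-kappa B targets, averaged 2.33, 11.4 and 6.21 CPM. TINAGL1, a matrix glycoprotein, averaged 7.14, 25.2 and 15.2 CPM, and AP5B1 and NALF2 followed the same order. Of genes higher in L, KIT, the stem cell factor receptor known for its role in pig coat colour, ranged from 4.99 to 12.5 CPM in L with a median of 6.60, from 0.246 to 1.32 in DPL with a median of 0.535, and from 0.858 to 4.11 in LDPL with a median of 1.55. Every crossbred pig lay below every L pig, and the highest, replicate 10, stood apart from the others at 0.858 to 1.8 CPM. On the log2 scale the distance of KIT from the midpoint was not called (-0.33 ± 0.26, adjusted p = 0.492), and on the linear scale it lay below the midpoint (-1.21 ± 0.27, adjusted p = 0.00871). ARMCX6 was the other additive gene called on the linear scale, at 6.80, 0.928 and 1.99 CPM (-0.96 ± 0.23, adjusted p = 0.0143). CPXM1 averaged 8.14, 1.5 and 3.83 CPM, VASH1 6.90, 1.42 and 2.80 CPM, and SPOCK2 7.97, 1.63 and 3.02 CPM. COL3A1, a fibrillar collagen, was additive at 1031, 228 and 513 CPM. Of 29 matrix genes tested, 19 differed between the parental groups (37.6% over all genes), with a median position of 0.563, beside 0.741. None of the 29 was called against a midpoint, beside 7.67% of all genes on the log2 and 7.2% on the linear scale.

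Landrace-like genes with higher DPL levels included UCHL1, a deubiquitinase, at 2.40, 9.27 and 3.90 CPM in L, DPL and LDPL, and DEDD2 at 5.85, 14.1 and 7.01 CPM. DEPP1, a target of FOXO factors, averaged 2.97, 7.61 and 3.81 CPM. FDXACB1 averaged 3.34, 9.13 and 2.59 CPM, but DPL replicate 11 alone had 31.9 CPM, and its linear call (adjusted p = 0.035) was lost in 7 of 24 fits that each left out 1 library. Among those with higher L levels, PVALB, the calcium buffer of fast fibres, ranged from 4.65 to 94.5 CPM in L with a median of 36.2. It ranged from 2.03 to 15.3 CPM in DPL with a median of 4.27, and from 5.91 to 105 CPM in LDPL with a median of 16.7. The crossbred pigs overlapped both parental groups, with the highest above every L pig, and the distance of PVALB from the midpoint was not called (log2 distance 1.15 ± 0.46, adjusted p = 0.127). CAPN6, a calpain without protease activity, averaged 45.8, 12.8 and 29.0 CPM, with 132 CPM in L replicate 2 and 17.4 to 41.5 in the other L pigs. ADAMTS2, which trims procollagen, averaged 13.1, 4.84 and 9.22 CPM, and NID2, a basement membrane protein, 21.7, 9.22 and 16.4 CPM.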

How the data were processed

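RNA-seq of 24 pig muscle libraries (8 each of L, DPL and LDPL) was analysed. The deposited tables give, per the file headers, uniquely mapped read counts per gene and RPKM per library, a coverage value and a length (other values, not tested). Bowtie 0.12.2 and Cufflinks are the tools listed in the submitters' processing notes, beside a mouse build, mm8, although the gene identifiers are those of pig; the pig build is not given in the sources used here. RPKM recomputed from the counts differed from the deposited RPKM by at most a relative 2.18e-14. Genes a table does not list were set to a count of 0. Symbols were matched for 10836 of 17930 identifiers (60.4%). The kit does not mark strand, so overlapping genes on opposite strands cannot be told apart.

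Counts were fitted with edgeR 4.0.16 (R 4.3.3; TMM; filterByExpr, minimum count 10, minimum total 15) over 24 libraries with 1 coefficient per group, keeping 99.96% of reads. The log2 midpoint contrast was tested by the quasi-likelihood F test. On the linear scale, log2 of the LDPL level minus log2 of the mean of L and DPL was tested by a Wald test with delta-method variance from the same fit. Classes came from the 3 pairwise tests. All p-values were Benjamini-Hochberg adjusted over 12599 genes, with a threshold of 0.05. Scripts were tested on simulated data. Errors of log2 values are standard errors. The labels say 32 pigs, 8 per group; p-values measure the spread between these samples, and nothing further is stated on their independence. No libraries of a group agreed within sampling noise. Alternatives used DESeq2 1.42.0 and limma 3.58.1 (log2 of RPKM with a pseudocount of 1), other scalings and filters, a replicate block, and each library left out.

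Genes with a symbol and at least 5 CPM in the highest group were named by rank. These were 8 above and 8 below both groups with the largest smaller fold change, and 5 per direction in the other classes by parental difference. A further 5 per direction were taken on the linear scale by adjusted p. Up to 3 called members of each gene list were named without this minimum level. Some named genes, uncertain copies or repeats, were left out, a few results are not reported here, and uncalled list members were added for context. The comparison, lists and named genes were chosen with earlier results of these data known. No gene sequence or coordinate was used here.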

Additional observations from a re-analysis of the deposited data

Results flagged for a closer look

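The highest or lowest pig of a group of 8 stood apart from the others by Dixon's criterion (a large gap to the nearest pig, relative to the range of the group) in 27 of 270 sets tested. Chance flags about 1 set in 20 where values are independent and normally distributed. The sets share libraries, and the distribution of CPM was not tested, so 27 cannot be held against that rate. The flags gathered in L replicate 2, which listed 15664 genes against 14712 to 15040 in the other L libraries. It was the highest L pig with 132 CPM of CAPN6 against 17.4 to 41.5, 8.51 CPM of IFIT5 against 3.35 to 4.99, 17.3 CPM of STAT2 against 8.52 to 11.9 and 49.6 CPM of TNNT2 against 0.776 to 3.2. It was the lowest L pig with 13.4 CPM of CRY2 against 25.0 to 36.5, 3260 CPM of LDHA against 6650 to 9490 and 2.3 CPM of SPOCK2 against 6.95 to 12.1. The effect of leaving this library out is given beside TNNT2, KY and the class counts.

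Among other L libraries the highest values that stood apart were replicate 8 with 5.3 CPM of DEPP1 against 2.13 to 3.17. Among other L libraries the lowest values that stood apart were replicate 7 with 126 CPM of BAG3 against 192 to 274 and replicate 1 with 0.998 CPM of FDXACB1 against 2.66 to 4.65. Among DPL libraries the highest values that stood apart were replicate 23 with 325 CPM of HRC against 185 to 241, replicate 23 with 157 CPM of NDUFV1 against 93.3 to 115, replicate 11 with 16.2 CPM of NFKBIZ against 9.85 to 12.2, replicate 19 with 35.4 CPM of NR1H3 against 22.7 to 27.9 and replicate 23 with 107 CPM of PKDCC against 32.2 to 54.6. Among DPL libraries the lowest values that stood apart were replicate 19 with 4.61 CPM of CAPN6 against 11.1 to 16.1 and replicate 11 with 0.82 CPM of SPOCK2 against 1.44 to 2.29. Among LDPL libraries the highest values that stood apart were replicate 4 with 22.2 CPM of ADAMTS4 against 2 to 5.43, replicate 14 with 20.7 CPM of CPT1A against 11.4 to 14.8 and replicate 10 with 4.11 CPM of KIT against 0.858 to 1.8. Among LDPL libraries the lowest values that stood apart were replicate 9 with 1.86 CPM of CPXM1 against 3.37 to 4.68, replicate 4 with 1.6 CPM of EXD2 against 2.85 to 3.13, replicate 4 with 131 CPM of HRC against 177 to 218, replicate 5 with 7.66 CPM of IGFBP5 against 14.9 to 25.5, replicate 10 with 336 CPM of MDH2 against 442 to 509 and replicate 8 with 5.04 CPM of XPA against 7.86 to 10.4.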

How the results depend on the processing

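The results were recomputed under 12 other settings and with each of 24 libraries left out. Counts differed by more than 1.5 times from those given above under 5 settings. Without a filter on low counts there were 240 genes below the log2 midpoint, 43 additive and 14 below both. DESeq2 gave 148 additive, 313 Landrace-like, 53 above both and 45 below both, among them all 22 genes above both and 23 of the 24 below both. limma on log2(RPKM + 1) gave 199 below the log2 midpoint, 42 additive and 9 below both. Its classes kept 29 of the 71 additive, 17 of the 22 above-both and 9 of the 24 below-both genes. Of the 165 Landrace-like genes it kept 68, among 110 in its own class, and of the 2745 Dapulian-like genes 2057. At an adjusted p under 0.01 there were 264 above and 82 below the log2 midpoint, 128 above and 126 below the linear midpoint, 5 additive, 26 Landrace-like, 1650 Dapulian-like, 3 above both and 3 below both. With 1 library left out, the ranges were 382 to 667 above and 194 to 399 below (log2), 230 to 467 above and 282 to 567 below (linear), 29 to 98 additive, 69 to 219 Landrace-like, 2406 to 2838 Dapulian-like, 10 to 38 above both and 10 to 30 below both. Replicate numbers recur across groups in 6 pairs, 5 of L with LDPL and 1 of L with DPL. The correlation of deviations was above 0.1 in 1 pair, replicate 7 of L and DPL, at 0.145. Only in that pair was the same-numbered library the closest of the other group. Whether pigs of the same number had anything else in common was not tested. A fit with the replicate number as a block left 30 Dapulian-like genes and 0 in every other count (0 above and 0 below either midpoint), and MYH3 changed sign on the linear scale (0.749, adjusted p = 0.562); that fit spends most of its degrees of freedom on the numbers. Of 124 named midpoint calls, 123 were lost under the block, and 74 were lost under no other setting. Under upper quartile scaling the median log2 distance of all genes was -0.0406, against -0.0188. Depth limits the genes under about 5 CPM, such as MYF5, and intervals cover the spread between pigs only.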

Other observations

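Some lipid genes lay below the midpoint in the cross, without a shift of the lipogenesis list as a whole. NR1H3, the liver X receptor alpha that governs cholesterol and fatty acid synthesis, averaged 21.9 CPM in L, 26.2 in DPL and 17.7 in LDPL and lay below both groups (log2 distance from the midpoint -0.44 ± 0.10, edgeR adjusted p = 0.00924). AGPAT1, an acyltransferase of triglyceride and phospholipid synthesis, was below both at 35.0, 37.1 and 26.6 CPM (-0.44 ± 0.10, adjusted p = 0.00548), with 6 of 8 crossbred pigs below every parental pig. ACSS2, which makes cytosolic acetyl-CoA, was Landrace-like at 45.8, 56.2 and 38.6 CPM (-0.39 ± 0.09, adjusted p = 0.0103). Of 21 lipogenesis genes tested, 2 were below and none above the midpoint on either scale, beside 2.92% below and 4.75% above over all genes on the log2 scale and 3.98% and 3.21% on the linear scale. The median log2 distance of this list was 0.011, beside -0.0188 over all genes. Of 13 adipogenic regulators tested, 2 were below and 1 above the midpoint on each scale, beside the same shares over all genes. None of the 7 adipocyte markers tested was called, and their summed level averaged 834 CPM in L, 620 in DPL and 670 in LDPL; the part of fat cell content in these results was not tested.

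The lists of protein breakdown and clock genes had median positions close to DPL. FOXO1, a transcription factor that drives muscle protein breakdown, averaged 33.7, 90.8 and 114 CPM in L, DPL and LDPL (log2 distance 1.04 ± 0.15, adjusted p = 9.2e-05; linear distance 0.87 ± 0.16, adjusted p = 0.00195). SQSTM1, the autophagy receptor p62, averaged 581, 1033 and 1347 CPM (0.80 ± 0.15, adjusted p = 0.00159). Of 25 proteolysis and atrophy genes tested, 15 differed between the parental groups (37.6% over all genes) and had a median position of 0.836, beside 0.741 over all genes. In this list 3 genes lay above and 2 below the log2 midpoint (4.75% and 2.92% over all genes). On the linear scale 2 lay above and 2 below (3.21% and 3.98% over all genes), and KLHL33 is among those below. CRY2, a repressor of the clock, averaged 28.4, 59.5 and 67.5 CPM (0.72 ± 0.16, adjusted p = 0.00708). Of 14 clock genes tested, 4 lay above the log2 midpoint (4.75% over all genes) and none below (2.92%), while 2 lay above (3.21%) and 1 below (3.98%) the linear midpoint. MYF5, a myogenic factor of satellite cells, was low in all groups at 1.57, 2.74 and 0.807 CPM and lay below both groups (log2 distance -1.35 ± 0.32, adjusted p = 0.00999).

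Of 8 slow fibre genes tested, 3 lay above the log2 midpoint (4.75% over all genes) and 1 above the linear midpoint (3.21% over all genes). These were CSRP3, ANKRD2 and TEAD1, of which TEAD1 alone was called on the linear scale. No other gene of the list was called, so the count does not describe slow contractile proteins. CSRP3, a stretch-responsive LIM protein of the Z-disc, averaged 80.4, 817 and 518 CPM in L, DPL and LDPL (log2 distance 1.01 ± 0.27, adjusted p = 0.0215, and 0.062 without LDPL replicate 15). ANKRD2, a stretch-responsive ankyrin repeat protein, averaged 21.6, 287 and 167 CPM (1.08 ± 0.29, adjusted p = 0.0228, and 0.052 or 0.085 without LDPL replicate 4 or 15). TEAD1, a partner of the YAP coactivator, averaged 60.9, 58.2 and 89.5 CPM (0.59 ± 0.15, adjusted p = 0.0153).

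In 5 further genes the log2 call was lost in 12 to 17 of the 24 fits that each left out 1 library: MYL1 (0.39, adjusted p = 0.0433), PNPLA2 (-0.51, adjusted p = 0.0443), BMP4 (-0.48, adjusted p = 0.0416), FST (-0.92, adjusted p = 0.0497) and IRF7 (-0.68, adjusted p = 0.0489).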
